A study of Homo sapiens with 6 samples.

Results

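Chromosome 19 holds 244 of the 20461 genes of the deposited expression table under a symbol made of ZNF and a number, with or without a closing letter. They were found by matching the Ensembl identifiers of the table to current symbols and to positions on the hg19 genome build. PANC1, a human pancreatic carcinoma line, had been given 50 nM gemcitabine, a cytidine analogue that blocks DNA synthesis, or 0.1% DMSO as vehicle for 48 h. RNA-seq was done on 2 libraries per condition, which the study describes as biological replicates, and DNaseI-seq, which maps open chromatin, on 1 library per condition. All libraries came from this 1 cell line. The table gives, for each library, the fragments assigned to a gene and its FPKM, a level per unit of transcript length that is corrected for library depth. Between 13194533 and 15766237 fragments were assigned per library, so that 3 fragments stood for 0.190 to 0.227 CPM (counts per 1000000 assigned fragments) before scaling. The CPM used further on are after scaling. The epithelial markers KRT7, KRT8, KRT18 and KRT19 and the mesenchymal marker VIM were present in all 4 libraries, while ALB, CD3E, INS and PRSS1 were at 0 in each, CDH5 was at 0 to 3 fragments and PTPRC at 2 to 9.

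The ZNF genes of this chromosome encode mostly C2H2 zinc finger proteins, in which tandem fingers, each held by a zinc ion, read DNA bases. Many carry a KRAB box at the amino end, which binds the corepressor TRIM28 and through it brings a histone methyltransferase, heterochromatin proteins and deacetylases to DNA, often at transposable elements. The genes lie in tandem clusters that grew by duplication in primates and other mammals, and near-identical copies make short reads hard to place.

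The regulatory windows of 4 of these genes are shown as examples of each direction: ZNF146 and ZNF787 were lower after gemcitabine, and ZNF230 and ZNF226 were higher. Each window runs from 250 bases before to 50 bases after the transcription start, was taken from RefSeq on the GRCh38.p14 build and is printed 5′ to 3′ on the strand of its gene. Capitals mark CCGGAAG or its reverse complement, the core of the sites of ETS family activators, which ZNF146 lacks in this window.
ZNF146: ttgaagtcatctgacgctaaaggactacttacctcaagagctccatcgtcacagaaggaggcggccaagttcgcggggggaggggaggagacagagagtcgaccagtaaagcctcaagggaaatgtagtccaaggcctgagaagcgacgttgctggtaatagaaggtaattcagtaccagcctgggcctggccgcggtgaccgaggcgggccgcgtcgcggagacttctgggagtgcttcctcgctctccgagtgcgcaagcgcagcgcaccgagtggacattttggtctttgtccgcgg
ZNF787: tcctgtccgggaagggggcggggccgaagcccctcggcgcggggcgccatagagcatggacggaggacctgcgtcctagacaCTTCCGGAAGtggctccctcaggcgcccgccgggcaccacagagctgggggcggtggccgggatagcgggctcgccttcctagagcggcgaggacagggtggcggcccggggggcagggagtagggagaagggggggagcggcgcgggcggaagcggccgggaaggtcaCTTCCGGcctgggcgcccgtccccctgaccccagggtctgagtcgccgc
ZNF230: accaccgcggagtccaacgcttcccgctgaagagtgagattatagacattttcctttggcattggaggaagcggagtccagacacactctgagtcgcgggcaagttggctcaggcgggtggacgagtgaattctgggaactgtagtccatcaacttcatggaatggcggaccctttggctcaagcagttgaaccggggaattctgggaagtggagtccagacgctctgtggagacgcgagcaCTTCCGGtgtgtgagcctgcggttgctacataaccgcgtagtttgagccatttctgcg
ZNF226: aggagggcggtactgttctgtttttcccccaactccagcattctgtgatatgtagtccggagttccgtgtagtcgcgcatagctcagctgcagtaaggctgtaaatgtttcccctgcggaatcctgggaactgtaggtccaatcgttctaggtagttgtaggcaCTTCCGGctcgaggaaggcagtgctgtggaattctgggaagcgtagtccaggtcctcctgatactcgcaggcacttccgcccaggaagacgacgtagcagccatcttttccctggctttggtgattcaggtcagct
The windows lie at chr19:36214856-36215155 (plus strand), chr19:56121246-56121545 (minus strand), chr19:44002707-44003006 (plus strand) and chr19:44164850-44165149 (plus strand) of GRCh38.p14. Each matched hg19 without a difference at 1 place, namely chr19:36705758-36706057, chr19:56632615-56632914, chr19:44506859-44507158 and chr19:44669003-44669302.

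Most of the 244 genes were expressed at a low level in vehicle-treated cells. A mean of at least 0.1 FPKM over the vehicle libraries was reached by 175 genes (71.7%, against 67.5% of all genes of the table), 1 FPKM by 143 and 10 FPKM by 20. The median was 1.42 FPKM over the 244 genes and 2.60 FPKM over the 175, where all genes had medians of 3.58 and 14.1 FPKM. Together the genes took 0.183% and 0.187% of the fragments of the vehicle libraries and 0.199% and 0.179% of those of the gemcitabine libraries. No fragment was assigned in any library to 8 of them, namely ZNF154, ZNF256, ZNF470, ZNF471, ZNF551, ZNF606, ZNF676 and ZNF781, of which 6 lie in the last run of ZNF genes on the long arm.

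The 6 genes with the highest mean FPKM over the 4 libraries were ZNF544, ZNF580, ZNF414, ZNF146, ZNF358 and ZNF428. ZNF544, the highest, stood at 75.5 and 63.1 FPKM in vehicle and at 72.7 and 56.2 FPKM after gemcitabine, and the conditions overlapped on this scale. ZNF414 had 36.8 and 29.2 FPKM in vehicle and 36.2 and 43.3 FPKM after gemcitabine, and ZNF358 had 35.1 and 27.6 against 33.0 and 38.1 FPKM. ZNF428 gave 27.5 and 25.3 FPKM in vehicle and 29.6 and 28.6 FPKM after gemcitabine. In edgeR's test of fragments none of these 4 passed, with log2 fold changes of -0.11 (ZNF544), 0.10 (ZNF414), 0.03 (ZNF358) and 0.03 (ZNF428), each with an SE of 0.10 to 0.13. ZNF544 lay above ZNF580, which had 53.6 and 46.0 FPKM in vehicle and 39.2 and 25.9 FPKM after gemcitabine, in each library. From ZNF580 on, the ranges of neighbours in this order overlapped. Fragment values were not whole for ZNF544, ZNF580, ZNF358 and ZNF428, which means that part of their fragments was divided between places or genes.

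Most of these genes did not pass the test for a change after gemcitabine. In bulk RNA, fewer cells with a transcript and less of it per cell cannot be told apart. At least 10 fragments over the 4 libraries, the minimum for a test, were found for 188 of the 244 genes, and the other 56 comprise the 8 at 0 and 48 with fewer than 10. At an adjusted p under 0.05 (edgeR's quasi-likelihood test, adjusted over all 14854 tested genes), 12 of the 188 were lower after gemcitabine (6.38%, against 20.0% of all tested genes) and 14 were higher (7.45%, against 18.5%). Lower genes were ZNF112, ZNF121, ZNF132, ZNF146, ZNF260, ZNF296, ZNF416, ZNF507, ZNF580, ZNF787, ZNF813 and ZNF850. Higher genes were ZNF20, ZNF45, ZNF114, ZNF223, ZNF226, ZNF230, ZNF266, ZNF548, ZNF575, ZNF665, ZNF714, ZNF772, ZNF823 and ZNF846. The median log2 fold change was -0.01 over the 188 genes and 0.01 over all tested genes, and 96 of the 188 lay below 0. For other genes in the same bins of abundance, described further on, the weighted mean of the bin medians was 0.16, which is not the same measure. By bin, the median was 0.51 in the lowest and -0.10 in the highest for ZNF genes, against 0.36 and -0.02 for other genes. It was lower for ZNF genes in all bins but 1 and 9. The median of the 188 ran from -0.11 without gemcitabine library 1 to 0.06 without gemcitabine library 2, and was 0.10 with library totals in place of TMM scaling, which moved the median of all tested genes to 0.12. With the added criteria of the study (a fold change over 1.5, a mean of at least 0.1 FPKM in 1 condition and a difference of at least 1 FPKM), 4 were called lower (against 4.43% of all tested genes) and 1 higher (against 5.69%). The counts moved with each library. Over all tested genes, the share past the threshold also fell when either vehicle library was left out and rose when either gemcitabine library was. Without vehicle library 1, 5 were lower and 2 higher; without vehicle library 2, 4 and 3. Without gemcitabine library 1, 23 were lower and 8 higher, and without gemcitabine library 2, 12 were lower and 21 higher. The ratio of gemcitabine library 1 to library 2 had a median of 0.10 on the log2 scale over the 188 genes and of -0.01 over all tested genes, and its part in these counts was not tested. The CPM of the conditions did not overlap for 101 of the 188 (53.7%, against 69.7% of all tested genes).

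**Figure D1:**
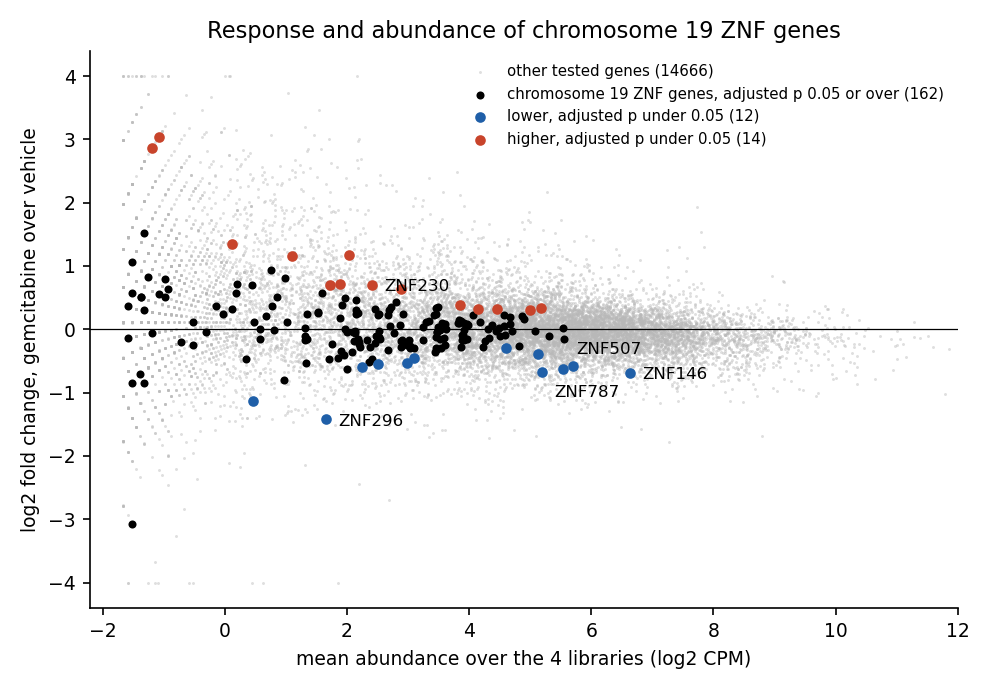
Mean abundance of the 14854 tested genes (log2 CPM, x axis) against the log2 fold change of gemcitabine over vehicle (y axis), with chromosome 19 ZNF genes in black, blue (12, lower at adjusted p under 0.05) and red (14, higher), other genes in grey, and the 5 ZNF genes called by all criteria named. Values past 4 on the y axis, all of other genes, are drawn at 4, and most ZNF genes sit close to 0 at low to middle abundance.

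Low abundance limits a test, so the genes were also set against other genes of like abundance. The 188 genes were divided into 10 bins by mean log2 CPM, and the 11904 other tested genes that fell into these bins were weighted to the same number per bin. Of the ZNF genes 13.8% had changed at an adjusted p under 0.05, against 32.4% of the other genes at the same abundance, with 6.38% against 11.5% lower and 7.45% against 20.9% higher. A fold change over 1.5 was seen for 15.96% against 32.5%. The median size of the log2 fold change, whatever its sign, was 0.25 over the 188 genes. For the other genes the weighted mean of the bin medians was 0.42, which is not the same measure. Within bins the median size was smaller for ZNF genes in all but the highest bin, where it was 0.21 against 0.20. In the upper 5 bins the shares changed were 14.9% and 40.9%, and in the lower 5 bins 12.8% and 23.9%. ZNF genes on other chromosomes (221 tested) that were weighted in the same way had 24.2% changed, with 15.96% lower and 8.27% higher. These shares are descriptions, and no test of the difference was made. The share of chromosome 19 ZNF genes stood below that of other genes of the same abundance in each setting tried, from 2.22% against 12.2% (limma on log2(FPKM + 1)) to 18.0% against 37.5% (without gemcitabine library 2).

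**Figure D2:**
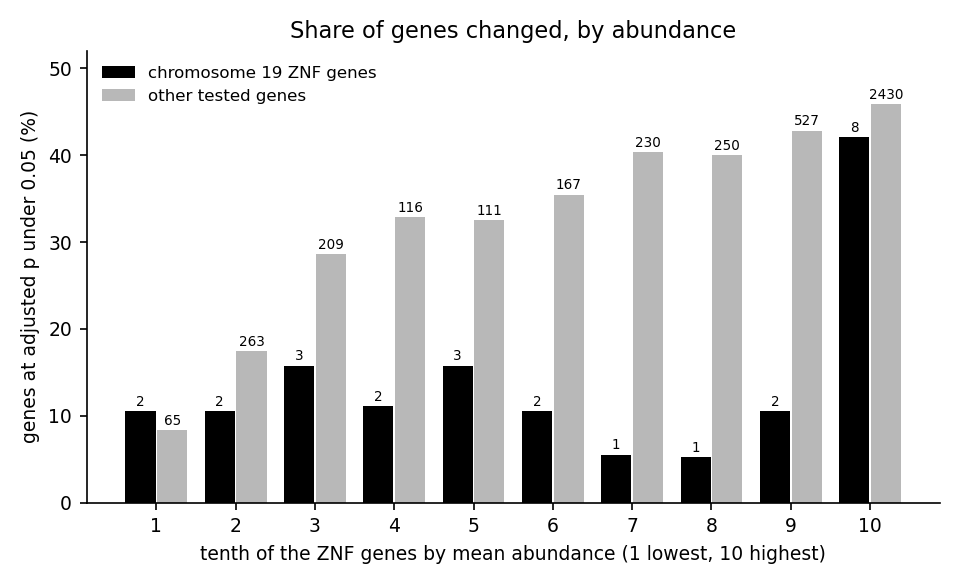
Share of genes at adjusted p under 0.05 (y axis, percent, with the count above each bar) in 10 bins of about equal numbers of the tested chromosome 19 ZNF genes in order of mean abundance (x axis), for ZNF genes (black, 18 or 19 a bin) and other tested genes (grey). The black bar is the lower one in all bins but the first, and comes nearest to the grey bar above that in bin 10, at 42.1% against 45.9%.

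The clearest fall was that of ZNF146, a protein that consists almost wholly of zinc fingers and is known to be overexpressed in pancreatic and colorectal carcinomas. It gave 1825 and 1802 fragments in vehicle and 1012 and 1072 after gemcitabine, or 42.1 and 39.5 against 27.2 and 27.0 FPKM. Both treated libraries lay well below both vehicle libraries, and the log2 fold change was -0.69 (SE 0.07, edgeR adjusted p = 4.35e-06), a fall of 37.8%. ZNF146 (chr19:36705504-36729673, hg19, plus strand) was past the threshold in every fit tried, the only one of the 26 genes for which this held. It overlaps ZNF565 on the other strand, whose 31 to 38 fragments per library are few beside its own.

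ZNF787, ZNF507 and ZNF296 were the other genes called lower. ZNF787 (chr19:56598732-56632664, hg19, minus strand) had 648 and 685 fragments in vehicle and 356 and 412 after gemcitabine, with a log2 fold change of -0.68 (SE 0.09, edgeR adjusted p = 5.5e-05). ZNF507 (chr19:32836500-32878573, hg19, plus strand) had 776 and 900 fragments against 490 and 514, with a log2 fold change of -0.62 (SE 0.08, edgeR adjusted p = 4.7e-05). Both fell by more than the libraries of a condition differed, by 37.6% and 35.1%. ZNF296 (chr19:45574758-45579736, hg19, minus strand) rested on fewer fragments, 58 and 70 in vehicle and 27 and 17 after gemcitabine, and its log2 fold change of -1.42 (SE 0.29, edgeR adjusted p = 0.00133) was a fall of 62.7%. Without vehicle library 2 its adjusted p was 0.0519. None of these 4 proteins held a match to the KRAB box pattern.

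Among the other genes that were lower, ZNF121 fell from 874 and 980 to 652 and 494 fragments (log2 fold change -0.58, SE 0.10, edgeR adjusted p = 0.000437), below the fold limit by a small margin. ZNF580 went from 601 and 572 to 463 and 361 fragments (-0.40, SE 0.11, edgeR adjusted p = 0.00865). It missed the threshold in 5 of 11 alternatives. Its fragment values were not whole, and it overlaps ZNF581 and CCDC106 on the same strand, which had log2 fold changes of 0.10 (SE 0.14) and 0.01 (SE 0.11) and did not pass the test. ZNF416 went from 79 and 84 to 52 and 48 fragments, and ZNF132 from 29 and 21 to 12 and 9. These last genes kept their direction but missed the threshold under most alternatives, 7 for ZNF416 and 8 for ZNF132 of 11. The smallest fall past the threshold was that of ZNF260, by 0.29 on the log2 scale or 18.3%.

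ZNF230 was the one gene called higher by all criteria. It stood at 55 and 63 fragments in vehicle and 81 and 96 after gemcitabine, or 0.882 and 1.68 against 2.75 and 3.25 FPKM, and rose 1.62-fold (log2 fold change 0.70, SE 0.20, edgeR adjusted p = 0.0139). The rise missed the threshold without vehicle library 1 (edgeR adjusted p = 0.138), without vehicle library 2 (0.0954) and without gemcitabine library 2 (0.0552). It also missed it in DESeq2 (adjusted p = 0.0987) and in limma on log2(FPKM + 1) (0.0640) and log2(FPKM + 0.1) (0.0764), so in 6 of 11 alternatives. ZNF114 had the largest rise among ZNF genes whose mean reached 1 CPM, with 32 and 41 fragments in vehicle and 78 and 75 after gemcitabine (log2 fold change 1.18, SE 0.23, edgeR adjusted p = 0.00116). Its FPKM of 0.0174 and 0.0671 in vehicle and 0.183 and 0.0458 after gemcitabine did not follow its fragments, and the conditions overlapped on that scale.

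ZNF20 had 20.9 and 15.7 fragments in vehicle and 45.9 and 31.2 after gemcitabine, and shares its strand and span with the readthrough gene ZNF625-ZNF20. ZNF823 gave 35 and 46 against 74 and 49, and ZNF223 gave 39.0 and 33.3 against 57.4 and 51.3 fragments. ZNF575 gave 91 and 79 against 113 and 131, and overlaps ETHE1 on the other strand, whose log2 fold change was 0.25 (SE 0.13) and did not pass the test. In all 4 the treated libraries lay above the vehicle libraries in CPM, but of 11 alternatives the threshold was missed in 6 for ZNF20, 7 for ZNF823, 7 for ZNF223 and 5 for ZNF575. Without gemcitabine library 1 the log2 fold change of ZNF823 was 0.40 (edgeR adjusted p = 0.311). ZNF665 had 0 and 2 fragments in vehicle and 10 and 5 after gemcitabine, and ZNF772 had 1.59 and 0 against 10.8 and 5.85. With so few vehicle fragments no fold is given for these last genes, although they passed the test. Both reached the minimum of 10 fragments only through the gemcitabine libraries, and both are counted among the 14 higher genes.

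**Figure D3:**
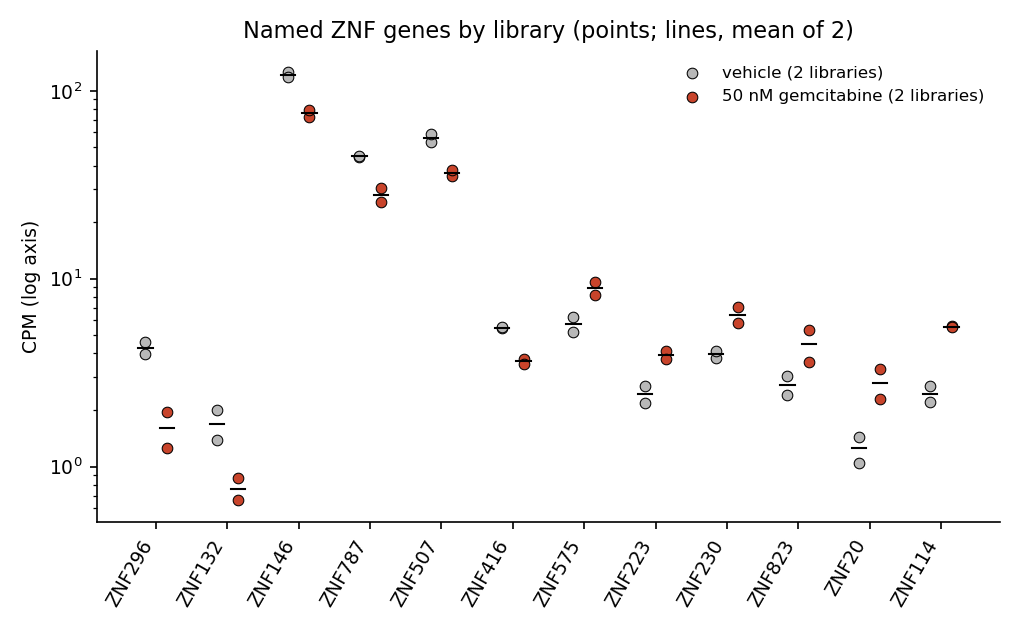
CPM on a log axis in each library for the 12 ZNF genes named by the rules on calls, with vehicle in grey, 50 nM gemcitabine in red, and a line at the mean of the 2 libraries. The first 6 genes, from ZNF296 to ZNF416, lie lower in both gemcitabine libraries, and the last 6, from ZNF575 to ZNF114, lie higher in both. The rules required no overlap between the conditions, so this separation follows from the choice of genes.

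Several ZNF genes of this chromosome have a role known from other work. ZNF91 and ZNF93, which silence SVA and LINE-1 retrotransposons, had 35 and 34 against 31 and 34 fragments and 11 and 17 against 20 and 22 fragments. Neither passed the test, and the log2 fold change was 0.03 (SE 0.29) for ZNF91 and 0.70 (SE 0.39) for ZNF93. ZNF274, which binds the ends of other ZNF genes and recruits the methyltransferase SETDB1 there, stood at 198 and 213 against 216 and 200 fragments (log2 fold change 0.13, SE 0.12). ZNF350, also known as ZBRK1, a BRCA1-binding repressor of the DNA damage gene GADD45A, gave 30 and 44 against 43 and 40 fragments (0.28, SE 0.28). ZNF420, a p53-binding repressor, had only 7 to 9 fragments per library. ZNF331, an imprinted gene, gave 471 and 546 against 524 and 394 fragments (-0.03, SE 0.11), and ZNF304, a transcriptional repressor, 191 and 208 against 203 and 194 (0.11, SE 0.12). ZNF175, known to repress HIV-1 transcription, gave 146 and 185 against 139 and 157 (-0.05, SE 0.15), and ZNF224, which represses aldolase A, 18 and 18 against 22 and 14 (0.11, SE 0.39). ZNF766 went from 30 and 38 to 19 and 17 fragments, with no overlap, but missed the threshold (-0.80, SE 0.33, edgeR adjusted p = 0.0717). ZNF382 had 0 to 3 fragments per library and was not tested. Of the 12 genes chosen for a known role or for being listed by the study, ZNF146 alone passed the test.

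The proteins were sorted by a search for the core of the KRAB box in a coding transcript of each gene. The pattern had 6 fixed positions, from a phenylalanine past a valine to a tryptophan. In its strict form any residue was allowed at 1 of the fixed positions after the valine, and this was found in 183 proteins. The relaxed form, with the 1 free position anywhere among the 6, added 18 proteins. Neither form was found in 39, and 4 genes gave no usable protein. A missing match says only that this pattern is not in the transcript read. Proteins with the pattern, the 18 included, had a median of 13 fingers and those without it 10. Genes without the pattern had the higher abundance, with a median of 5.52 FPKM in vehicle against 1.28 FPKM. Of 34 tested genes without the pattern, 7 were lower (20.6%) and 2 higher (5.88%), and of 153 with it, 5 were lower (3.27%) and 12 higher (7.84%), where 20.0% and 18.5% of all tested genes were lower and higher. Other genes in the same abundance bins had 15.9% lower and 21.4% higher for the former class, and 10.5% and 20.8% for the latter. The split of the KRAB class turned with the library left out, from 15 lower and 6 higher without gemcitabine library 1 to 6 and 18 without gemcitabine library 2, and came to 0 and 2 without vehicle library 1 and 1 and 3 without vehicle library 2. Without gemcitabine library 1 the class without the pattern had 8 lower and 2 higher, without gemcitabine library 2 it had 6 and 3, without vehicle library 1 it had 5 and 0, and without vehicle library 2 it had 3 and 0. The median log2 fold change was -0.002 with and -0.06 without the pattern. When the 18 genes were counted with those that lack it, the medians were -0.01 with and 0.01 without, so the sign of the latter class depends on the pattern, and the genes with the strict pattern had 4 lower and 11 higher of 141. Across the 187 tested genes with a protein, Spearman's rho of the number of fingers was 0.01 with the log2 fold change and -0.16 with the mean FPKM, a description across genes, which are not independent.

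**Figure D4:**
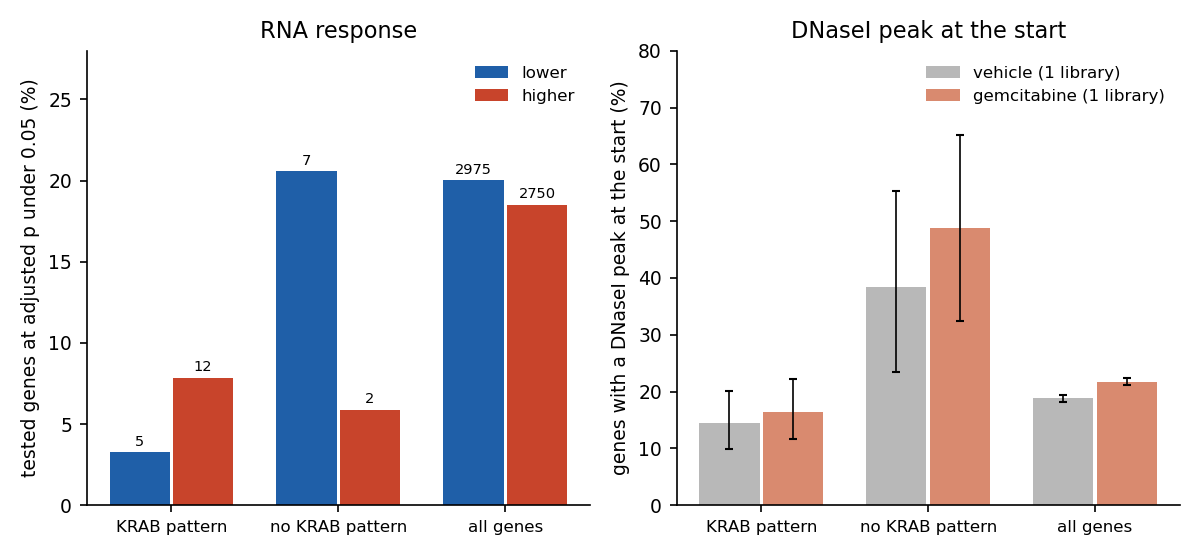
Left, share of tested genes at adjusted p under 0.05 (y axis, percent) that were lower (blue) or higher (red) after gemcitabine, with the count above each bar. Right, share of genes with a DNaseI peak within 1000 bases of the start (y axis, percent) in the single vehicle (grey) and gemcitabine (orange) libraries, with exact 95% binomial intervals. ZNF genes without the KRAB pattern had the higher share with a peak, 38.5% and 48.7%.

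The 244 genes fall into 16 runs along the chromosome when a gap of more than 1 Mb between neighbouring starts ends a run, and 233 of them are in 9 runs of at least 5 genes. Run 12 (chr19:44029649-45579736, hg19, from ZNF575 to ZNF296) had 7 changed genes among its 22 tested (31.8%, against 38.5% of all tested genes): ZNF575, ZNF45, ZNF230, ZNF223 and ZNF226 were higher and ZNF112 and ZNF296 lower. ZNF226 went from 185 and 185 to 235 and 210 fragments and ZNF45 from 269 and 312 to 352 and 315, and in CPM neither overlapped between conditions. Genes that changed lay beside others that gave no call, among them ZNF224 and ZNF225, and the median log2 fold change of the run was 0.11. Of the 23 tested genes in the same span that are no ZNF genes by this rule, 3 were lower and 11 higher, with a median of 0.44. The count for run 12 was 2 lower and 5 higher without gemcitabine library 2 and 3 and 2 without gemcitabine library 1. It came to 1 and 0 without vehicle library 1 and to 0 and 0 without vehicle library 2.

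For the counts of the other runs, the shares to compare are those of all tested genes, 20.0% lower and 18.5% higher. Run 16, the largest with 58 genes and 44 tested (chr19:55987984-58992597, hg19, from ZNF628 to ZNF446), had 4 lower and 2 higher and a median of -0.11. Run 15 (52074536 to 54083523, 30 tested) had 1 lower and 1 higher, and run 5 (19779605 to 24312770), which holds ZNF91 and ZNF93, had 0 lower and 1 higher, ZNF714, among 22 tested of 36. In run 9 (36673178 to 38307940), 3 of 16 tested genes were lower (18.75%, near the share of all tested genes), ZNF146, ZNF260 and ZNF850, and the median was -0.17. Run 3 (11594242 to 12750912) had 2 higher, ZNF823 and ZNF20, of 19 tested and a median of 0.23. Run 2 had 1 lower and 2 higher of 14 tested, and runs 1 and 8, with 5 tested genes each, had 0 changed. The counts of lower genes without 1 library ranged from 1 to 7 in run 16 and from 1 to 4 in run 9, with the highest without gemcitabine library 1. The counts of higher genes in runs 3 and 5 ranged from 0 to 3 and from 0 to 4, with the highest without gemcitabine library 2. The medians of all 9 runs lay between -0.17 and 0.23, so that no run as a whole moved by as much as the fold limit.

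**Figure D5:**
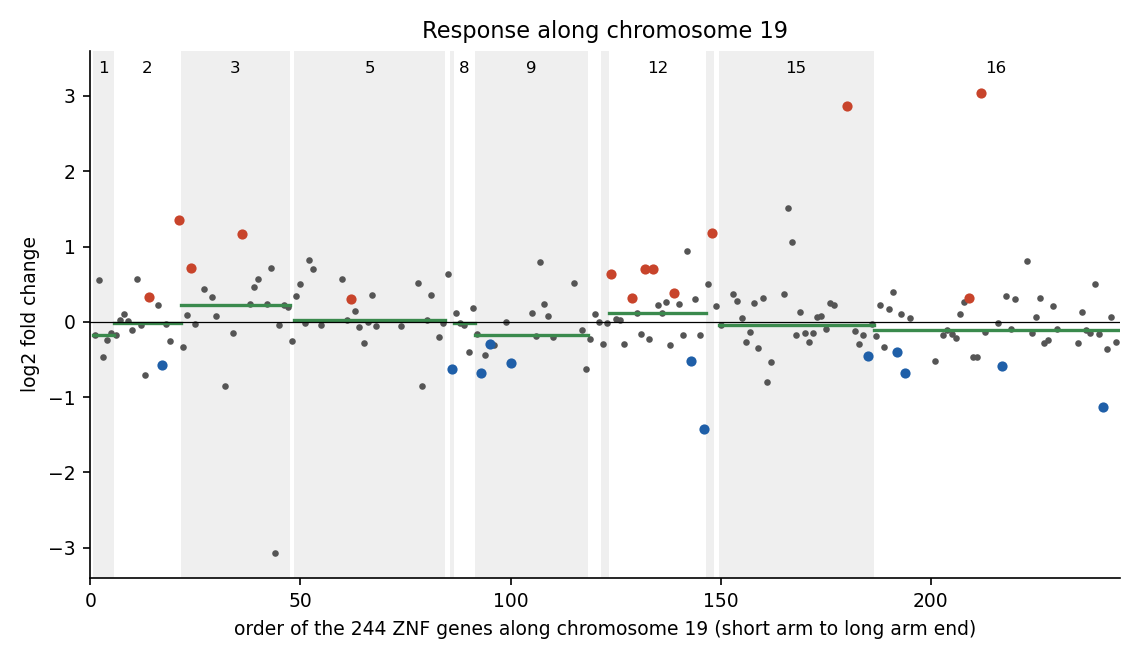
Log2 fold change (y axis) of the 188 tested ZNF genes in their order along chromosome 19 (x axis), in blue where lower and in red where higher at adjusted p under 0.05. Shading alternates between the 16 runs, the 9 with at least 5 genes carry their number, and a green line marks the median of each of those 9; run 12 holds 5 red and 2 blue points.

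Most of the genes for the proteins through which KRAB boxes act passed the test. Of 25 listed cofactors 24 were matched and tested, and at an adjusted p under 0.05, 16 were lower and 3 higher, or 79.2% changed, with a median log2 fold change of -0.23. Of all tested genes 38.5% had changed, with 20.0% lower and 18.5% higher, and of other genes in the bin of highest ZNF abundance 45.9%. That bin lies below the cofactors in abundance (median 23.7 against 65.5 FPKM), so 45.9% is not a share at matched abundance. TRIM28, the corepressor itself, went from 7351 and 7467 to 5154 and 5579 fragments (log2 fold change -0.35, SE 0.07, edgeR adjusted p = 0.00114). SETDB1, the methyltransferase it recruits, went from 609 and 666 to 485 and 446 (-0.34, SE 0.08), and the heterochromatin gene CBX3 from 3743 and 3875 to 2356 and 2486 (-0.54, SE 0.07). MORC2, a chromatin compactor that works with the HUSH silencing complex, was the only one called by all criteria, at 784 and 778 against 403 and 432 fragments (-0.79, SE 0.09). DNMT3B, DAXX and HDAC1 were the 3 that were higher, with log2 fold changes of 0.51, 0.31 and 0.28. These cofactors are of far higher abundance than the ZNF genes, with a median of 65.5 FPKM, and the falls were mostly under the fold limit. Fewer cofactors passed the threshold when either vehicle library was left out, and the share of all tested genes past it fell as well. When either gemcitabine library was left out, the number of cofactors changed little, while that share rose.

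Open chromatin at the starts of these genes was read from the 2 DNaseI peak lists. A peak within 1000 bases of the transcription start was listed for 45 of the 244 genes in the vehicle library (18.4%, exact 95% interval 13.8 to 23.9) and for 53 in the gemcitabine library (21.7%, 16.7 to 27.4), with 32 in both. All genes of the table with a start gave 18.8% and 21.7%. The gemcitabine list is also the longer one, with 10695 against 9606 peaks, and with 1 library per condition the difference has no replicate check. All peaks were at tested genes, of which 23.9% and 28.2% had one, against 25.1% and 29.0% of all tested genes and 16.4% and 20.0% of other tested genes of the same abundance. The 56 genes not tested had 0 of 56 in each list (upper limit of the interval 6.38%). Genes without the KRAB pattern had a peak in 38.5% and 48.7% of cases (15 and 19 of 39), and those with it in 14.4% and 16.4% (29 and 33 of 201).

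The printed windows of ZNF146, ZNF787 and ZNF226 lay wholly within a peak of both lists, and that of ZNF230 had a peak in neither. For ZNF787 the peak scores were 107 in vehicle and 142 after gemcitabine and for ZNF146 83.4 and 69.2, where a higher score is a smaller p-value of the peak caller. The highest scores were those of ZNF473, a protein of histone mRNA processing, at 256 and 179. Of the 32 tested genes with a peak in both libraries 3 were lower and 3 higher, of the 21 with a peak in gemcitabine alone 0 and 2, of the 13 with one in vehicle alone 0 and 1, and of the 122 with none 9 and 8. The median log2 fold changes of these classes were -0.01, -0.01, -0.12 and 0.02. Over all tested genes 20.0% were lower and 18.5% higher.

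A promoter sequence was found for 212 of the 244 genes. CCGGAAG, searched on both strands, occurred in 97 of them (45.8%), against 10.7% of all 27305 promoters, 17.7% of those of all tested genes and 34.8% of those of ZNF genes on other chromosomes. It was in 49.1% of the windows of genes with the KRAB pattern and in 27.8% of those without it. CCAAT, the letters of the CCAAT box, was in 53.8% (all promoters 35.7%, tested genes 36.4%, ZNF genes on other chromosomes 42.8%). With the KRAB pattern its share was 59.4%, and without the pattern 27.8%. GGGCGG, the letters of a GC box bound by SP1, was in 67.5%, near the 68.3% of tested genes and the 66.7% of other chromosome 19 genes (all promoters 44.6%). ATGGCGGC, which YY1 sites contain, and TCTCGCGA were in 4.72% and 1.42%, against 3.21% and 1.19% of all promoters and 5.76% and 2.23% of those of tested genes. Matches to different letters may overlap one another in a window. Among tested genes, 5 of 75 with CCGGAAG were lower and 5 higher, and 7 of 92 without it were lower and 6 higher, with median log2 fold changes of -0.05 and 0.06. The shares over all tested genes were 20.0% lower and 18.5% higher. A match is a description of the letters in the window, and many of these windows are copies of one another in part, since the genes arose by duplication.

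Reads shared between copies bear on these values. Fragment values lay within 1e-06 of a whole number in all 4 libraries for 71.7% of the 244 genes, against 79.8% of all genes, and 63 of the 188 tested genes had a value that was not whole. Of the 50-base windows of their transcripts, a median of 1.36% was shared with another gene of the table, and for 25 genes the share was over 10%. The highest share was 87.4%, for ZNF709, which had 8.69 and 2.44 fragments in vehicle and 0.920 and 0 after gemcitabine and did not pass the test. Of the 26 genes past the threshold, 10 overlap another gene of the table, and of the 188 tested genes 74 do. Overlap was judged by the whole span of a gene and not by its exons. The library kit keeps no strand, so reads cannot be told apart where exons coincide. Without the genes whose values were not whole, 10 of 125 were lower and 8 higher.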

How the data were processed

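RNA-seq covered 2 vehicle and 2 gemcitabine libraries of PANC1 cells, and DNaseI-seq 1 of each. Single-end reads had been aligned by the authors (Tophat2 2.0.8, hg19), who ran Cuffdiff 2.0.2 on the protein-coding genes of Gencode 15. The estimated counts that the authors deposited are fragments divided between isoforms and places, and were rounded to whole numbers. The FPKM that the authors deposited come from the same Cuffdiff run. The 2 columns scaled by Cuffdiff were not used. The authors called DNaseI peaks with MACS at a p-value of 1e-05 in each condition, and the deposited score of a peak was used to rank and filter.

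Symbols were matched for 19619 genes and not for 842. The 14854 genes with a sum of 10 or more fragments entered a test in edgeR 4.0.16 (quasi-likelihood, TMM, Benjamini-Hochberg) in R 4.3.3, after a check on simulated counts. The alternatives were DESeq2 1.42.0, limma 3.58.1 on log2(FPKM + 1) and log2(FPKM + 0.1), other scalings and filters, and each library left out. Intervals and floors cover counting error only. Positions, starts, transcripts and coding exons came from Gencode 44 carried over to hg19, later than the release the authors used. KRAB boxes and fingers (2 residues between cysteines, 12 to the first histidine, 3 to 5 between histidines) were searched in proteins translated from those exons, since no protein table was used here. The named genes are those called by all criteria, the 6 largest rises and 6 largest falls at adjusted p under 0.05 whose mean reached 1 CPM, whose conditions did not overlap and whose fragments were above 0 in each library, the 6 highest by FPKM, and 12 of known role or listed by the study. Other names were added after their values were seen. The genes, lists and rules were chosen with earlier results of these data known. The epithelial and other markers were 12, of which PECAM1 was not matched, and UHRF1 was not matched among the cofactors.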

Additional observations from a re-analysis of the deposited data

How the results depend on the processing

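No paired analysis was possible because nothing links the index of the libraries in the table to the replicates of the labels. The fit with the replicate as a block was therefore not run. The size factors of DESeq2 in edgeR, edgeR's own filter on low counts and the removal of genes not marked OK kept all counts within 1.5 times. KRAB medians here use the strict pattern, with genes of the relaxed one counted as without KRAB unless stated. With library totals in place of TMM, 5 were lower and 23 higher at adjusted p under 0.05, 1 and 2 by all criteria, 38.3% of the log2 fold changes lay below 0, the medians with and without the KRAB pattern were 0.10 and 0.12, and 12 cofactors passed. That scaling moved the median of all tested genes from 0.01 to 0.12. DESeq2 left 6 lower and 2 higher, all of them among the 26, and 0 called higher. On log2(FPKM + 1) limma gave 2 lower, 2 higher, 1 called lower, 0 called higher and 3 cofactors, with a median of 0.14, 34.1% below 0 and a KRAB median of 0.14. On log2(FPKM + 0.1) it gave 2, 2, 2, 0 and 3, with medians of 0.19 (all), 0.20 (KRAB) and 0.12 (no KRAB) and 34.1% below 0. The medians of all genes on these scales were 0.10 and 0.13. The share of all genes past the threshold was 26.2% in DESeq2 and 12.5% and 12.7% in limma, against 38.5% in the main fit. Without a filter on low counts 7 were higher. At adjusted p under 0.01, 6 were lower and 2 higher. Without genes whose fragment values were not whole 8 were higher, and of those with a mean of at least 50 fragments, a limit chosen after seeing the data, 9 were higher. With a peak score of at least 100 the shares with a peak were 4.92% in vehicle and 5.74% after gemcitabine. Leaving out 1 library gave 4 to 23 lower, 2 to 21 higher, 2 to 5 called lower, 0 to 2 called higher, KRAB medians from -0.124 to 0.0823, medians without KRAB from -0.0816 to 0.0214, and 6 to 20 cofactors. With genes of the relaxed pattern counted as KRAB genes, the left-out-library ranges were -0.11 to 0.08 with and -0.12 to -0.01 without KRAB. The share of all tested genes past the threshold also moved with the library left out. The causes were not tested. Where 1 library of a condition is left, it is assumed to vary like the other condition. Of the 295 alternative values for single named genes, 221 kept their side of the threshold, 58 kept their direction but lost significance, and 16, none of them past the threshold, moved. All 58 belong to genes past the threshold in the main fit, as the other named genes had no significance to lose. The pooled count therefore understates how often a call was lost. Depth limits what could be detected, as the median SE was 0.847 in the bin of lowest abundance and 0.0971 in the highest.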

Other observations

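The printed window of ZNF230 holds TGGGAANTGTAGT (N is any base), and this run of letters was searched on both strands in all windows after it had been seen there. It was in 24 of the 212 chromosome 19 ZNF windows (11.3%), in 5.96% of those of ZNF genes on other chromosomes and in 0.754% of all 27305 windows. Of the 24 genes, 10 lie in run 12, among them ZNF45, ZNF112, ZNF224 and ZNF230, and 8 in run 9, among them ZNF260, ZNF850 and ZNF420. Windows of neighbouring genes are in part copies of one another. The windows of ZNF225 and ZNF420 hold it at 2 places each. Of 19 tested genes with the letters 3 were lower and 2 higher, and of 148 without them 9 and 9, with median log2 fold changes of -0.16 and 0.002. Among all tested genes 20.0% were lower and 18.5% higher.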
